A study of Homo sapiens with 18 samples.

Results

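The genes described here are 33 genes of protein folding and quality control in the endoplasmic reticulum (ER). They were chosen by symbol as a fixed list of ER chaperones, folding enzymes, degradation factors, stress sensors and proteins of ER entry and exit, with no measured value in the rule, although the list was drawn up with earlier results of these data known. All 33 were found among the 23710 rows of each count table, and all 33 passed the filter on low counts in every comparison. They were followed in 3 established lines of human head and neck cancer (HNSCC) with EHF raised or lowered; EHF is an ETS-family transcription factor of epithelia. In A253, 3 control libraries came from cells in regular medium and 3 libraries from cells that overexpressed EHF, induced with 1 ug doxycycline (the labels give no volume). SCC25 had 2 control libraries in regular medium and 2 overexpression libraries induced in the same way. In CAL27, 2 control libraries were compared with 2 libraries of each of 2 knockdowns, named sh 64 and sh 65 as in the count table, all in regular medium. Doxycycline and raised EHF cannot be told apart, because only the overexpressing cells received the drug. The labels do not say whether any line is a single clone, what drives the EHF transgene, or whether replicates are separate cultures, so p-values measure only the spread between these libraries.

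Secreted and membrane proteins enter the ER through the SEC61 channel and are folded there by chaperones, lectins and disulfide isomerases. When unfolded proteins build up, the sensors ERN1 (IRE1), EIF2AK3 (PERK) and ATF6 start the unfolded protein response. ERN1 splices the XBP1 transcript into that of an active transcription factor, ATF6 is cut to release another, and EIF2AK3 slows translation and favours that of ATF4. XBP1 and ATF6 raise chaperone and degradation genes through ER stress elements in their promoters. Epithelial cells use the same machinery to make their surface and secreted proteins.

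The 16 RNA libraries held 7068155 to 19962159 counts. EHF was raised 8.13-fold in A253 (log2 change 3.02) and 1.99-fold in SCC25 (log2 change 0.99), and lowered to a fold of 0.523 by sh 64 and 0.467 by sh 65. The sh 65 minus sh 64 difference in EHF of -0.16 on the log2 scale did not pass the threshold. Squamous epithelial markers were at 7078 to 16310 CPM (counts scaled to library size) in sum in every library. Markers of other cell types were mixed. PTPRC (at most 0.411 CPM), CD3E (0.309), MZB1 (0.203) and TNFRSF17 (0.278) were near 0 in all libraries. Other genes of the leukocyte and plasma cell lists were expressed, with CD68 at 29.8 to 226 CPM, CD74 at up to 94.5, CD14 at up to 43.9 and SDC1 at 252 to 723 CPM. In bulk RNA, a change in every cell and a change in some of the cells cannot be told apart.

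Of 31 member promoters searched, 10 carried ER stress elements that are rare elsewhere. The members were listed as genes of this pathway, which acts through these elements, so the shares below describe the list and test nothing. RefSeq (GRCh38.p14) gave a promoter window, from 250 bases before to 50 after the gene start, for 31 of the 33 members, and 27305 such windows in all were searched on both strands for 5 motifs. The ER stress element ERSE, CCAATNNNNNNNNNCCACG, was matched in 7 member promoters (22.6%) and in 0.0806% of all promoters. The shorter element ERSE-II, ATTGGNCCACG, was matched in 3 members (9.68%) and in 0.0549% of all. The core of the XBP1 element, TGACGTGG, was found in DNAJC10 and HYOU1 (6.45% against 0.795%), and in HYOU1 it overlaps an ERSE-II match. An ATF4 element, TGATGNAA, was found in HERPUD1 (3.23% against 3.67%). A core bound by ETS factors, CGGAAGT, was found in 6 members, namely HSP90B1, PDIA4, DNAJB9, EDEM2, SYVN1 and SSR3 (19.4% against 7.23%). A match describes letters in the window and is not evidence of binding.

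The stretches upstream of the start are shown for 6 members that the results below turn on, 5′ to 3′ on the strand of the gene, with every motif match in capitals. HSPA5 (chr9:125241344-125241593, minus strand) and XBP1 (chr22:28800570-28800819, minus strand) hold 1 ERSE each, and HSP90B1 (chr12:103930160-103930409, plus strand) holds 2 ERSE with an ETS core between them. ERO1LB, named ERO1B in RefSeq (chr1:236281959-236282208, minus strand), holds an ERSE near the far end of the window. HERPUD1 (chr16:56931892-56932141, plus strand) holds the ATF4 element followed by ERSE-II. DNAJB9 (chr7:108569624-108569873, plus strand) holds 2 ETS cores and no ER stress element in this window.
HSPA5: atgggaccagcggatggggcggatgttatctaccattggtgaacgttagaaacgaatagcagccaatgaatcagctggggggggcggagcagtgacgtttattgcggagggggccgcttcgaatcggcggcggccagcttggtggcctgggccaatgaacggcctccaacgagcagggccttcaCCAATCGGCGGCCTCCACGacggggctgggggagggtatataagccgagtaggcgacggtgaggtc
XBP1: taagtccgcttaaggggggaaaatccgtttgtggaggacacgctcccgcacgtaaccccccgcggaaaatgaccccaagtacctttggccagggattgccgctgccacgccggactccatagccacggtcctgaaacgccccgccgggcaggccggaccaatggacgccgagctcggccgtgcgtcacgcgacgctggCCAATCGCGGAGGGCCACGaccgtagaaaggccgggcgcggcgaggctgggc
HSP90B1: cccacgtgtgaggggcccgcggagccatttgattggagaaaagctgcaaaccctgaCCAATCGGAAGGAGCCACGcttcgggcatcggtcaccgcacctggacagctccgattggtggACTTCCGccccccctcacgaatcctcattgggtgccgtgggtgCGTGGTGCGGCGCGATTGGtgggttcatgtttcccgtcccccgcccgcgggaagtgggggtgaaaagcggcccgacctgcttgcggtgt
ERO1LB: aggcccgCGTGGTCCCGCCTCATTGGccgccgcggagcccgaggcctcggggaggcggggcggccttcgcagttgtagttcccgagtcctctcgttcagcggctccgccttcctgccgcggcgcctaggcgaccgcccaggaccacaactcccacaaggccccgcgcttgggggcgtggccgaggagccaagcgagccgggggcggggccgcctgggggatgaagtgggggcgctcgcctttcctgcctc
HERPUD1: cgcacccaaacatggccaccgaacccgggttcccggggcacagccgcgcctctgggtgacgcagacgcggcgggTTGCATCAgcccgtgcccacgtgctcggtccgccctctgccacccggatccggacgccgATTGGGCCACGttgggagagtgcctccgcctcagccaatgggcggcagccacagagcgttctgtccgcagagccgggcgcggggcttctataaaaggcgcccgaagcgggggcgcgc
DNAJB9: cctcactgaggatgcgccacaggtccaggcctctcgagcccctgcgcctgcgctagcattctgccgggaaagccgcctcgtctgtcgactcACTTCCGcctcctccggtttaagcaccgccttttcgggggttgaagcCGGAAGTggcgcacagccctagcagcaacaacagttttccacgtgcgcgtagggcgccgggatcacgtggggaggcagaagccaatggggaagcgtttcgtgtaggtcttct

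**Figure D1:**
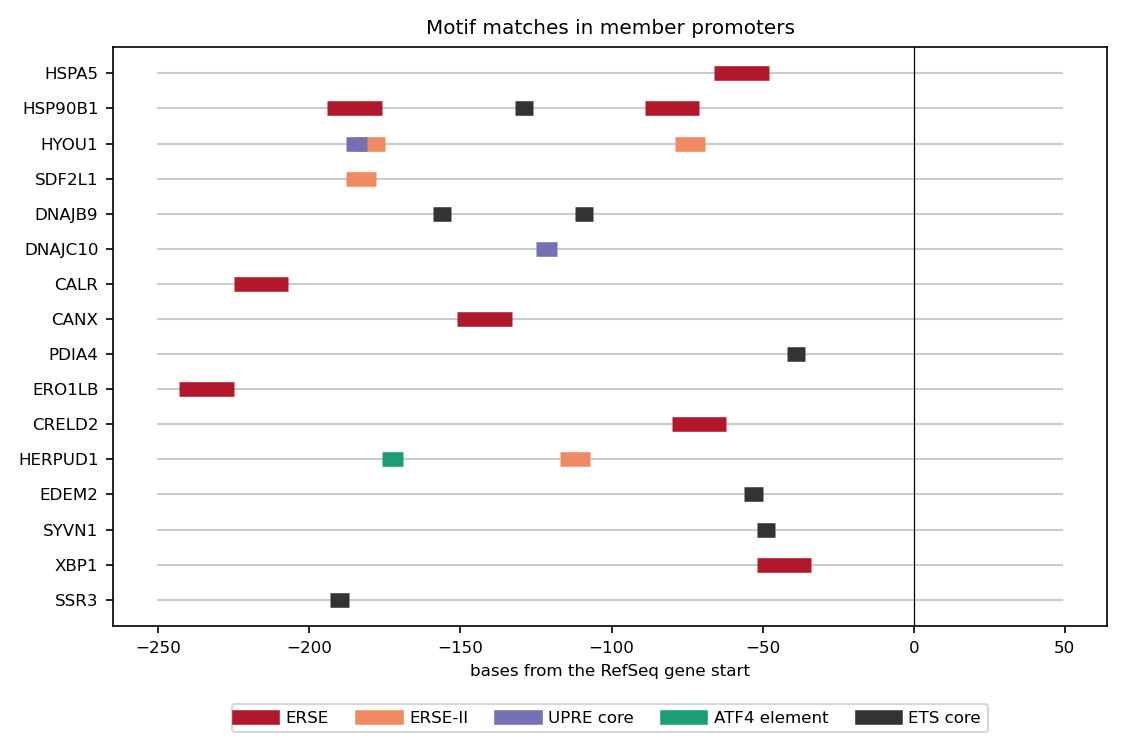
Motif matches in the promoters of the 16 members that held any, by distance in bases from the RefSeq gene start (x axis; 1 row per gene; grey line, the window searched). ERSE and ERSE-II matches fall in 10 members and ETS cores in 6, with HSP90B1 holding both kinds.

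In control cells CALR, CANX and HSP90B1 were among the 5 most abundant members in each line, measured per transcript length (TPM). CALR (calreticulin), which binds sugars on new glycoproteins in the ER lumen, stood at 793 ± 35.5 TPM in A253 (SD, n = 3), 1788 ± 5.62 in SCC25 and 662 ± 6.32 in CAL27 (SD, n = 2 each). CANX (calnexin), its membrane-bound relative, stood at 789 ± 49.6 TPM in A253, 290.4 ± 15.7 in SCC25 and 692 ± 18 in CAL27. SCC25 thus had the highest CALR and the lowest CANX of the lines, with no overlap between its libraries and those of the others. HSP90B1 (GRP94), the ER member of the HSP90 family, ran from 481 ± 15.2 TPM in CAL27 to 755 ± 44 in A253. HSPA5 (BiP), the HSP70 chaperone that also holds the sensors inactive, ranged from 119 TPM in CAL27 to 165 in SCC25. The least abundant were the sensor ERN1 (1.38 ± 0.397 TPM in A253, 3.69 ± 0.391 in SCC25 and 2.58 ± 0.676 in CAL27) and the disulfide-transferring oxidase ERO1LB (3.38, 1.73 and 2.48 TPM).

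The lines differed most in SEL1L, the scaffold of the ubiquitin ligase complex that clears misfolded ER proteins. SEL1L stood at 277 to 356 TPM in the A253 controls, at 35.1 to 36.7 in SCC25 and at 29.5 to 30.2 in CAL27, a ratio of 10.6 between the highest and lowest line means. Its partner SYVN1 (HRD1), the ligase itself, stood at 9.16, 6.71 and 11.8 TPM. SEC24D, a coat protein of vesicles that leave the ER, had a ratio of 4.2 between line means and was highest in SCC25. SSR3, a subunit of the translocon-associated complex, had a ratio of 3.87 and was highest in CAL27, at 663 ± 9.82 TPM. XBP1 (3.31) and HERPUD1 (3.25), a membrane factor of ER degradation, were highest in SCC25. In all, 13 members differed more than 2-fold between the highest and lowest line and 20 by 2-fold or less. This ratio was not computed over all genes, so these counts cannot be called many or few. DNAJC10, a disulfide reductase with a J domain, differed least, with a ratio of 1.08. The labels give different basal media for SCC25 and CAL27, and the lines have separate count tables, so line and medium cannot be told apart.

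**Figure D2:**
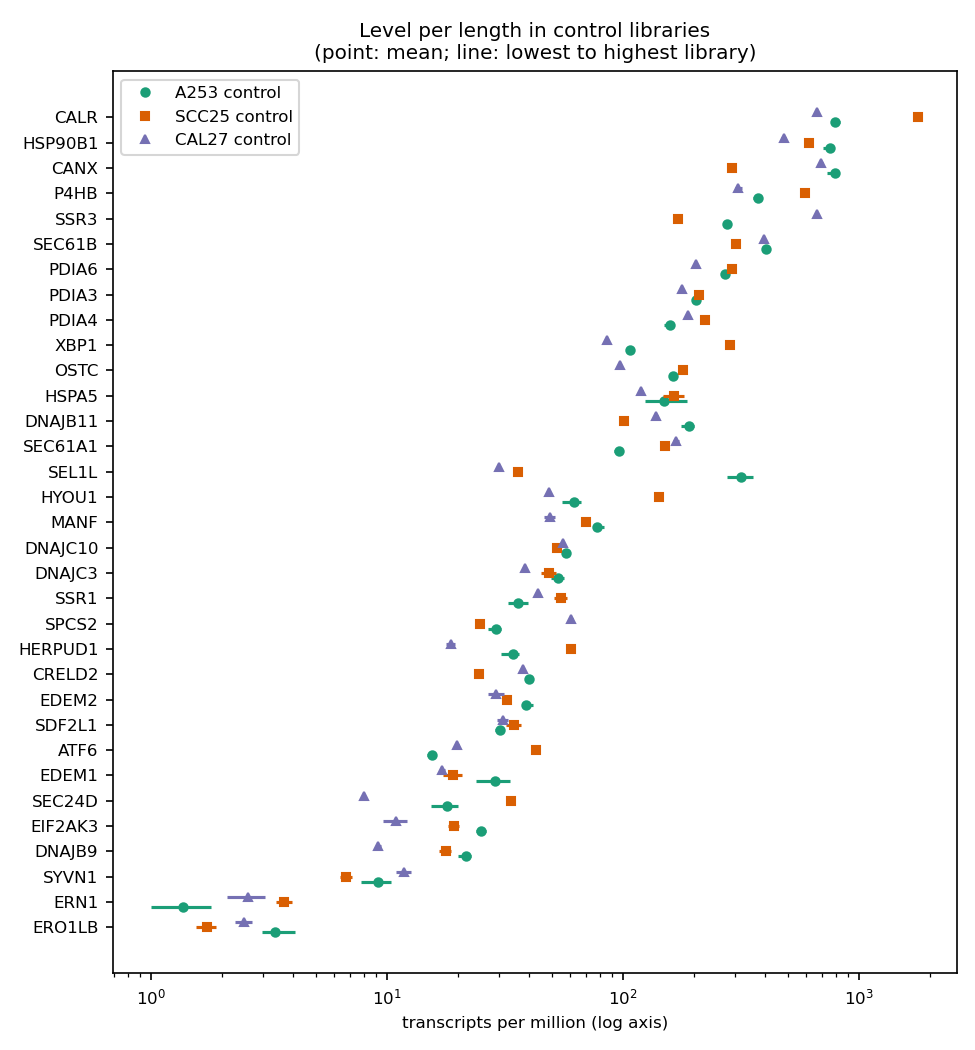
Level per length of the 33 members in control libraries (x axis, TPM, log scale; 1 row per gene), with points for the mean and lines from the lowest to the highest library of A253, SCC25 and CAL27. SEL1L in A253, at 277 to 356 TPM, lies far to the right of both other lines.

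Few of these genes changed when EHF was overexpressed in A253. Of 33 members, 1 rose and 1 fell at an adjusted p below 0.05 (edgeR), beside 5.03% of all genes tested that were higher and 2.94% that were lower. These shares are close to those of all genes. At an unadjusted p below 0.05, 6 members differed, beside 19.2% of all genes. The median log2 change over the members was 0.06, and that over all genes was -0.0034. ERO1LB stood at 7.77, 9.9 and 7.67 CPM in the controls and at 13.1, 13.6 and 11.6 CPM with EHF. Every overexpression library was above every control, a log2 change of 0.59 (SE 0.122, adjusted p = 0.00494). SEL1L stood at 1341, 1457 and 1223 CPM in the controls and at 1175, 1102 and 1113 CPM with EHF, with no overlap. It fell by 0.25 on the log2 scale (SE 0.0712, adjusted p = 0.0424). That call was lost without control replicate 1 (-0.25, adjusted p = 0.167), control replicate 2 (-0.19, 0.138), overexpression replicate 2 (-0.23, 0.117) or overexpression replicate 3 (-0.24, 0.142), and sat at an adjusted p of 0.05 without overexpression replicate 1, while the call of ERO1LB held in every fit. Of the leukocyte markers, CD14 (log2 change 1.40) and CD68 (0.47) rose in the same libraries and the sum over the list went from 127 to 132 CPM to 174 to 189 CPM, with PTPRC and CD3E near 0. The squamous markers also moved: 2 of 8 fell (KRT14 by 0.33 and KRT6A by 0.26), all 8 had an unadjusted p below 0.05, and their sum went from 13370 to 14360 CPM in controls to 11760 to 12720 CPM. The fibroblast marker COL3A1 fell by 0.65. The part of these markers in the results was not tested.

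The remaining 31 members had log2 changes between -0.19 and 0.22 in A253. HSPA5 read 274, 354 and 252.6 CPM in controls and 365, 273 and 237 CPM with EHF, so that its groups overlapped over most of their range (log2 change -0.01, SE 0.227). The spread of HSPA5 between A253 libraries was thus wider than that of most members, whose median SE was 0.0712. XBP1 was steady, at 97, 95.9 and 96.6 CPM in controls and 94.4, 99.1 and 104 CPM with EHF (log2 change 0.04 on the same scale).

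In SCC25, where EHF rose 1.99-fold against 8.13-fold in A253, more members passed the threshold, as did more of all genes. Mean EHF went from 440 to 876 CPM in SCC25 and from 86.4 to 703 CPM in A253. The median change of the members was nearly the same in both lines (0.06 in A253). Of 33 members, 12 rose and 1 fell, beside 12.2% of all genes tested that were higher and 11.6% that were lower. The median log2 change was 0.07 over the members and 0.0026 over all genes, and 27 of 33 values were above 0. At an unadjusted p below 0.05, 15 members differed, beside 35% of all genes. The changes were small: none reached 2-fold. Markers also moved: 2 of 6 fibroblast markers rose (COL1A2 by 1.44 and COL1A1 by 0.84) and DCN fell by 0.32, with the sum going from 88.8 to 99.6 CPM in controls to 109 to 111 CPM. CD74 (2.48) and CD14 (0.41) of 4 leukocyte markers rose as well. Of 8 squamous markers 3 rose, TP63 (0.58) and CDH1 (0.30) among them, but the median log2 change over the 8 was -0.06. The squamous sum was 15530 to 16310 CPM in controls and 15510 to 15910 CPM with EHF. The part of all these markers in the results was not tested. Summed over the members, the level per length was 0.6% to 0.617% of all transcripts in control libraries and 0.649% to 0.657% with EHF.

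Among the chaperones, 3 of 9 rose and 1 fell. DNAJB9 (ERdj4), a J-domain partner that brings HSPA5 to ERN1, stood at 24 and 22.4 CPM in SCC25 controls and at 31.2 and 33.2 CPM with EHF. Both overexpression libraries were above both controls, a log2 change of 0.48 (SE 0.0868, adjusted p = 0.000217). HSPA5 stood at 362 and 313 CPM in controls and at 389 and 393 CPM with EHF. Its log2 change was 0.21 (SE 0.057, adjusted p = 0.00741), and it was 0.11 (adjusted p = 0.121) without control replicate 2 and 0.20 (adjusted p = 0.0544) without overexpression replicate 2. HSP90B1 had a log2 change of 0.15 (adjusted p = 0.0485), which lost its call without control replicate 1 (0.10, adjusted p = 0.089), overexpression replicate 1 (0.13, 0.356) or overexpression replicate 2 (0.15, 0.251), and with all libraries in DESeq2 (0.0551), with no filter on low counts (0.0736) and with the replicate block (0.0722). SDF2L1, a small partner of DNAJB11 that keeps proteins soluble, went the other way. It stood at 14 and 17.1 CPM in controls and at 13.1 and 11.4 CPM with EHF, and fell by 0.35 on the log2 scale (SE 0.124, adjusted p = 0.0406). Without control replicate 2 its change was -0.21 (adjusted p = 0.376), and without overexpression replicate 2 it was -0.25 (adjusted p = 0.326).

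Among the lectins and disulfide enzymes, 2 of 8 rose. ERO1LB, low in SCC25, stood at 3.95 and 5.07 CPM in controls and at 8.02 and 9.38 CPM with EHF. It rose by 0.97 on the log2 scale (SE 0.17, adjusted p = 0.000145), the largest change among the members, from 139 counts over both control libraries to 226 over both overexpression libraries. PDIA3, the isomerase that works with CALR and CANX, had a log2 change of 0.15 (adjusted p = 0.0263). CALR (0.10) and P4HB (0.12), the classical protein disulfide isomerase, were higher in both libraries without passing the threshold, and PDIA4 (-0.06) and CRELD2 (-0.16) were lower in both without passing it. Of the other roles, HYOU1 (-0.12) and SEC61A1 (-0.03) were likewise lower in both.

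The degradation genes had the highest median of the 5 roles, 0.27 on the log2 scale, with 3 of 5 up. SEL1L stood at 158 and 159 CPM in controls and at 198 and 191 CPM with EHF, a rise of 0.29 (SE 0.0495, adjusted p = 9.62e-05). HERPUD1 stood at 67.8 and 68.3 CPM in controls and at 82.4 and 81.5 CPM with EHF, a rise of 0.27 (SE 0.0574, adjusted p = 0.00115). In both genes the gap between the groups was larger than the gap between replicates. SYVN1 stood at 10.9 and 10.2 CPM in controls and at 15 and 13.5 CPM with EHF (log2 change 0.42, SE 0.12, adjusted p = 0.0114). The call of SYVN1 was lost without control replicate 2 (0.38, adjusted p = 0.0804) and without overexpression replicate 1 (0.35, adjusted p = 0.103). EDEM1 and EDEM2, which help to mark glycoproteins for disposal, gave -0.03 and 0.07 and did not pass.

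Of the sensors and XBP1, 2 of 4 rose. XBP1 stood at 265 and 267 CPM in controls and at 304 and 315 CPM with EHF (log2 change 0.22, SE 0.049, adjusted p = 0.00175), and its call was lost without overexpression replicate 2 (0.19, adjusted p = 0.0664). These counts do not separate spliced from unspliced XBP1. EIF2AK3 stood at 47.1 and 44.8 CPM in controls and at 53.7 and 53.6 CPM with EHF (log2 change 0.22, adjusted p = 0.0168). Its call was lost on dropping control replicate 2 (adjusted p = 0.0938), overexpression replicate 1 (0.0965) or overexpression replicate 2 (0.132). Among proteins of entry and exit, SSR3 (log2 change 0.21, adjusted p = 0.00353) and SEC24D (0.17, adjusted p = 0.0342) passed, 2 of 7. The call of SSR3 was lost without overexpression replicate 1 (adjusted p = 0.0527), and those of SEC24D and PDIA3 without control replicate 1 or either overexpression replicate. Leaving out 1 library at a time, 9 members were higher when control replicate 1 was dropped, 10 when control replicate 2 was dropped, and 6 when either overexpression replicate was dropped. DNAJB9, SEL1L, HERPUD1 and ERO1LB passed in each of these fits. The counts over all genes also moved when a library was left out. With all libraries kept, DESeq2 gave 7 members higher and 0 lower and lost the calls of HSP90B1, PDIA3, SDF2L1 (adjusted p = 0.274), SYVN1 (0.143), EIF2AK3 (0.167) and SEC24D. Over all genes it called 847 higher and 742 lower, against 1728 and 1642 in edgeR.

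By promoter content, 5 of the 10 members with an ERSE or ERSE-II match rose in SCC25 and 1 fell, and 5 of the 21 without one rose. Of the 6 with an ETS core, 4 rose (HSP90B1, DNAJB9, SYVN1 and SSR3), and of the 25 without one, 6 rose and 1 fell. In A253, 1 of the 10 and 0 of the 6 rose. On the mean of both CAL27 knockdowns, 1 of the 6 with an ETS core fell (median log2 change 0.03) and 3 of the 25 without one fell (median -0.12). With sh 65, 0 of the 10 with an ERSE or ERSE-II match and 7 of the 21 without one fell. DNAJC10, which holds the core of the XBP1 element, is counted among the 21. Over all genes tested, 12.2% rose and 11.6% fell in SCC25, and 5.03% rose in A253. On the CAL27 mean 8.91% of all genes fell, and with sh 65 7.01% fell. Other genes with the same motifs were not counted. These are counts without a test.

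The effects of overexpression in A253 and SCC25 were compared through the interaction term when both lines were fitted together. SEL1L alone among the 33 members passed, beside 2.39% of all genes with a higher effect in SCC25 and 3.25% with a lower one. Its effect was 0.52 higher in SCC25 on the log2 scale (SE 0.0982, adjusted p = 0.00281), since it fell in A253 and rose in SCC25, and this held in all alternative fits. At an unadjusted p below 0.05, 7 members differed between the lines, beside 19.9% of all genes. For the other SCC25 calls a difference from A253 was not shown: DNAJB9, for example, differed by 0.37 on the log2 scale with an adjusted p of 0.0941.

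**Figure D3:**
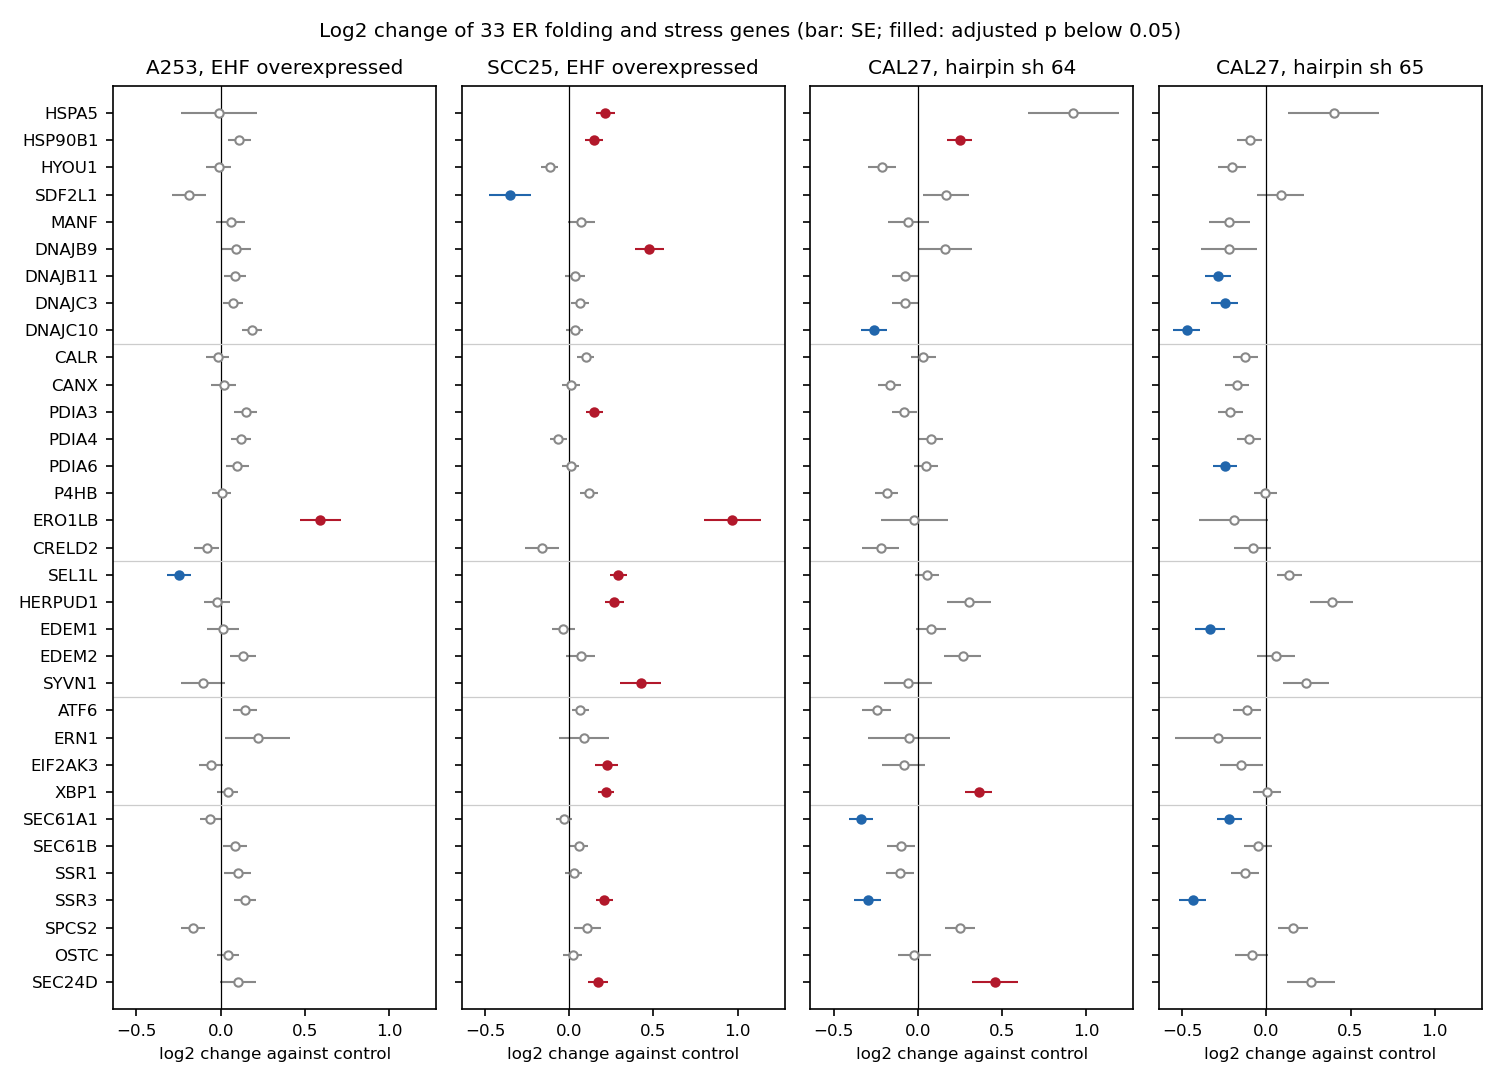
Log2 change against the control of the same line (x axis; bars, SE) of the 33 members in 4 comparisons, ordered by role from chaperones at the top to entry and exit at the bottom, with filled points at an adjusted p below 0.05 (red higher, blue lower). SCC25 shows 12 red points and 1 blue, A253 1 of each, sh 64 3 of each, and sh 65 7 blue.

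In CAL27 with EHF knocked down, DNAJC10 and SSR3 fell on the mean of both knockdowns in every fit, while the share of members called was near that of all genes. On the mean of both knockdowns, 2 of 33 members were higher and 4 lower, beside 9.88% of all genes tested that were higher and 8.91% that were lower. The median log2 change of the members was -0.10, with 23 of 33 below 0. Each knockdown was also compared with the same 2 control libraries, so these comparisons are not independent of one another. With sh 64, 3 members rose and 3 fell, beside 8.76% and 6.89% of all genes. With sh 65, 7 fell and none rose, beside 7.01% of all genes lower and 7.62% higher, and 11 members differed at an unadjusted p below 0.05, beside 28.1% of all genes. The summed level per length was 0.49% to 0.491% of all transcripts in controls, 0.467% to 0.471% with sh 64 and 0.424% to 0.428% with sh 65. Squamous markers also moved in these libraries: 5 of 8 rose with each knockdown, and their sum went from 7078 to 7418 CPM in controls to 9629 to 10310 with sh 64 and 10580 to 11850 with sh 65. Of the other markers tested, 1 of 3 fibroblast markers rose on the mean (LUM, 0.94). On the same mean, 1 of 4 leukocyte markers (CD74, -0.26) and 1 of 2 endothelial markers (CDH5, -0.82) fell. LUM (1.54) and CDH5 (-1.09) passed with sh 64 and not with sh 65. CD74 (-0.44) passed with sh 65 and not with sh 64. Fibroblast markers summed to 8.28 to 8.96 CPM in controls, 14.29 to 16.7 with sh 64 and 8.73 to 9.32 with sh 65. Salivary acinar markers summed to 16.36 to 19.24 CPM in controls, 17.55 to 28.66 with sh 64 and 8.96 to 21.98 with sh 65. None of the 2 tested passed. The part of all these markers in the results was not tested.

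DNAJC10, which reduces disulfides of proteins due for degradation, stood at 198 and 202 CPM in CAL27 controls, at 158 and 176 with sh 64 and at 138 and 150 with sh 65. All 4 knockdown libraries were below both controls, and the mean fell by 0.37 on the log2 scale (SE 0.0673, adjusted p = 0.000942). SSR3 stood at 1283 and 1289 CPM in controls, at 950.3 and 1143 with sh 64 and at 924 and 974 with sh 65. Its mean also fell by 0.37 (SE 0.0698, adjusted p = 0.00124). SEC61A1, the pore of the translocation channel, stood at 323 and 314 CPM in controls, at 244 and 261 with sh 64 and at 279 and 268 with sh 65. Its mean fell by 0.28 (SE 0.0619, adjusted p = 0.00427). SEC61A1 lost its call without control replicate 1 (-0.26, adjusted p = 0.108) or 2 (-0.30, adjusted p = 0.0604), whereas DNAJC10 and SSR3 passed without any 1 library.

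The other calls on the mean of both knockdowns were closer to the threshold. HYOU1 (GRP170), a large chaperone that recharges HSPA5 with ATP, stood at 116 and 119 CPM in controls and between 95.4 and 108 CPM in the knockdowns (log2 change -0.21, adjusted p = 0.0497). HERPUD1 stood at 21.8 and 20.6 CPM in controls, at 24.7 and 27.7 with sh 64 and at 24.5 and 30.9 with sh 65 (log2 change 0.34, adjusted p = 0.0394). SEC24D stood at 16.7 and 17.2 CPM in controls, at 20.6 and 27 with sh 64 and at 21.1 and 19.7 with sh 65 (log2 change 0.36, adjusted p = 0.0441). In each of these genes the knockdown libraries lay to 1 side of both controls. Without control replicate 1 no member was higher and 2 were lower, and the counts were the same without control replicate 2. HYOU1 also lost its call without sh 64 replicate 1 (adjusted p = 0.124) or sh 65 replicate 2 (0.107). HERPUD1 lost it without sh 64 replicate 1 (0.0509), sh 64 replicate 2 (0.0935) or sh 65 replicate 2 (0.0964), and SEC24D without sh 64 replicate 2 (0.119) or sh 65 replicate 1 (0.05, just above the threshold).

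HSPA5 was higher in all 4 knockdown libraries and yet did not pass the test. It stood at 249 and 246 CPM in CAL27 controls, at 581 and 353 with sh 64 and at 332 and 321 with sh 65. The lowest knockdown library was 321 CPM against a highest control of 249. The mean log2 change was 0.66 (SE 0.239, adjusted p = 0.171), with sh 64 it was 0.92 (adjusted p = 0.124) and with sh 65 it was 0.40 (adjusted p = 0.442). The gap between the sh 64 replicates was larger than that between controls and sh 65. Without sh 64 replicate 1, the highest library, the mean change was 0.46, and without sh 64 replicate 2 it was 0.82. DESeq2 gave 0.92 with an adjusted p of 0.0215 for sh 64 and 0.66 with 0.065 for the mean. With either sh 64 library left out, the spread between the sh 64 replicates drops out of the test. Those edgeR fits therefore give a size only, from 0.46 to 0.82.

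**Figure D4:**
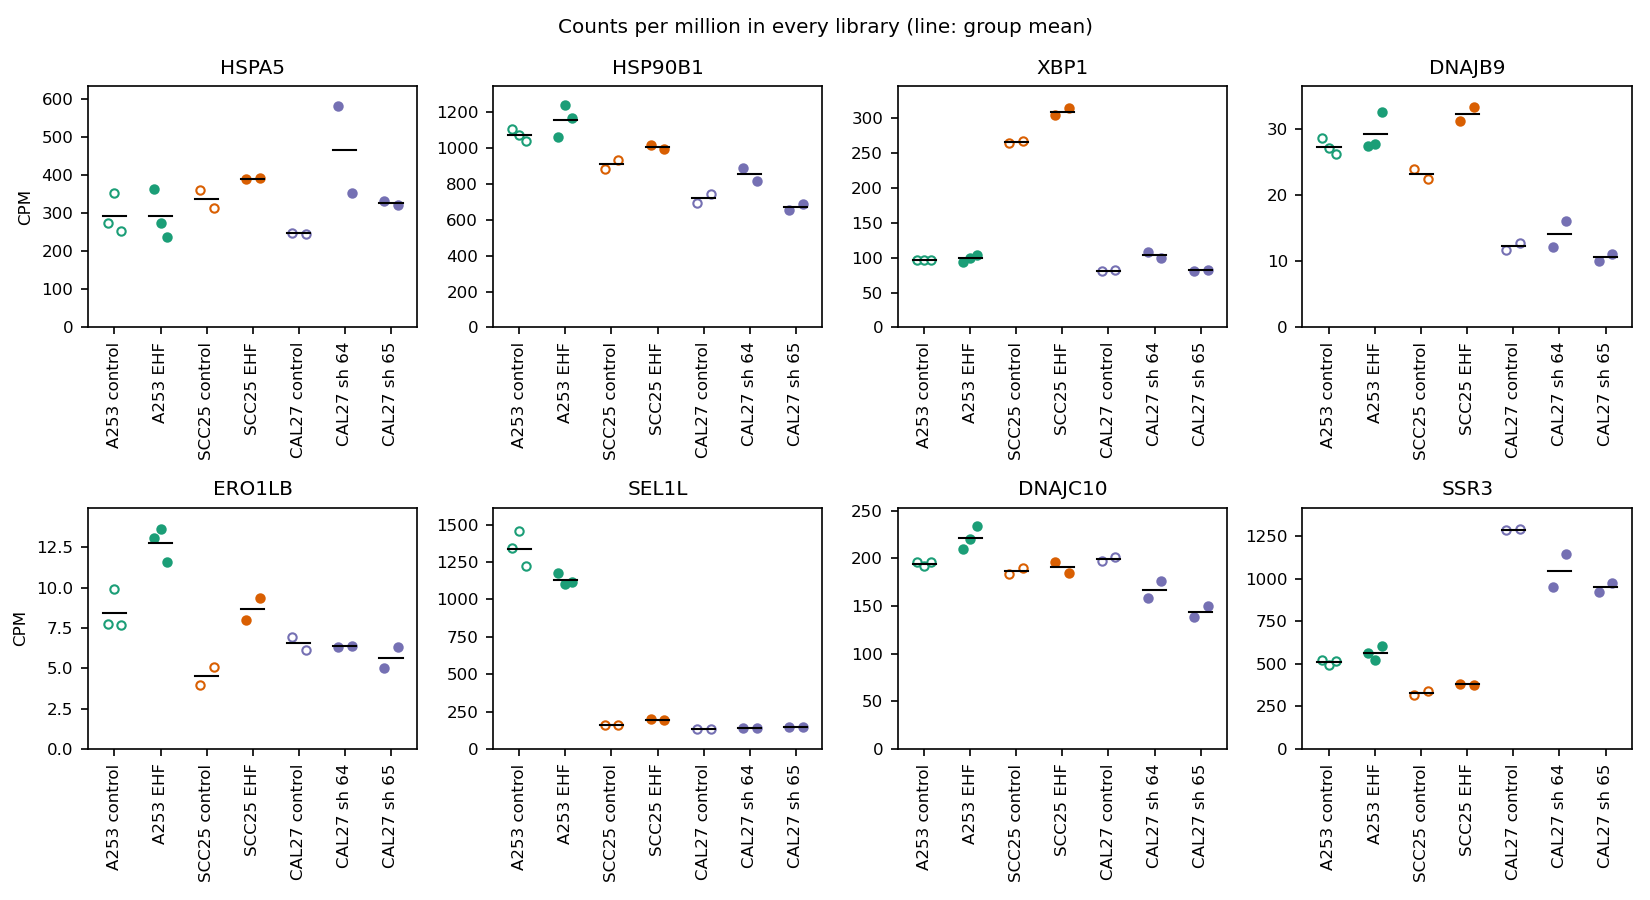
CPM in every library (y axis from 0) of 8 members, with open points for controls, filled points for changed EHF and lines for group means. HSPA5 reaches 581 CPM in 1 sh 64 library while the other 3 knockdown libraries lie between 321 and 353, and SSR3 and DNAJC10 lie below both CAL27 controls in all 4.

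The knockdowns differed from each other in 4 members, all lower with sh 65, beside 3.13% of all genes lower and 2.21% higher with sh 65 than with sh 64. Markers differed as well: LUM (-1.21) and CD74 (-0.37) were lower and KRT5 (0.30) was higher with sh 65. The part of these markers in the results was not tested. XBP1 stood at 80.7 and 82.1 CPM in controls, at 109 and 99.9 with sh 64 and at 80.6 and 82.7 with sh 65. It rose with sh 64 (log2 change 0.36, adjusted p = 0.00522), was level with controls with sh 65, and differed between the knockdowns by -0.36 (SE 0.0824, adjusted p = 0.0142). HSP90B1 stood at 693 and 744 CPM in controls, at 889 and 817 with sh 64 and at 653 and 689 with sh 65. It rose with sh 64 (0.25, adjusted p = 0.0283) and differed between the knockdowns by -0.35 (SE 0.074, adjusted p = 0.00837). EDEM1 stood at 56.1 and 54.4 CPM in controls, at 57.3 and 59.3 with sh 64 and at 44 and 43.6 with sh 65. It fell with sh 65 (-0.33, adjusted p = 0.0175) and differed between the knockdowns by -0.41 (SE 0.0916, adjusted p = 0.0115). PDIA6, a disulfide isomerase that attenuates the ERN1 signal, stood at 243 and 253.1 CPM in controls, at 256 and 257 with sh 64 and at 206 and 214 with sh 65. It fell with sh 65 (-0.24, adjusted p = 0.0279) and differed between the knockdowns by -0.29 (SE 0.0722, adjusted p = 0.0222). Without sh 64 replicate 1 no member passed this comparison, and the adjusted p of HSP90B1, EDEM1, XBP1 and PDIA6 was then 0.109, 0.064, 0.142 and 0.0939. EDEM1 and PDIA6 also missed the threshold without sh 64 replicate 2, and PDIA6 without sh 65 replicate 1. Against controls, the sh 64 calls of XBP1 and HSP90B1 were lost on dropping sh 64 replicate 1 or either control replicate. Their log2 changes over the alternatives ran from 0.29 to 0.41 and from 0.18 to 0.31. The sh 65 calls of EDEM1 (-0.36 to -0.32) and PDIA6 (-0.27 to -0.21) were lost on dropping either control replicate. That of EDEM1 was also lost in DESeq2, and that of PDIA6 on dropping sh 65 replicate 1.

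DNAJB11 (ERdj3) and DNAJC3 (P58IPK), J-domain partners of HSPA5, fell with sh 65. DNAJB11 stood at 122 and 121 CPM in controls and at 99.1 and 100.5 with sh 65 (log2 change -0.29, adjusted p = 0.019). DNAJC3 stood at 112 CPM in both controls and at 94.1 and 95.3 with sh 65 (-0.25, adjusted p = 0.0443). With sh 64 their log2 changes were -0.07 and -0.07, neither past the threshold, and neither gene passed the test between the knockdowns. With sh 65 the call of DNAJC3 was lost in DESeq2 and without any 1 of the 4 libraries. Its log2 change ran from -0.26 to -0.24 over the alternatives. That of DNAJB11 ran from -0.30 to -0.28, and its call was lost without sh 65 replicate 1 or either control replicate. DNAJC10 and SSR3 passed with each knockdown, at -0.26 and -0.30 with sh 64 and at -0.47 and -0.44 with sh 65, as did SEC61A1 at -0.34 and -0.22. The calls of DNAJC10 and SSR3 with sh 65 held in every alternative. With sh 64 both were lost without sh 64 replicate 1 (adjusted p = 0.248 and 0.241), control replicate 1 (0.163 and 0.115) or control replicate 2 (0.218 and 0.118), and DNAJC10 also in DESeq2 (0.0661). SEC61A1 lost its call with sh 64 without sh 64 replicate 1 (0.0592) or control replicate 1 (0.0739). With sh 65 it lost it in DESeq2 (0.085), with RLE size factors (0.0506) and without any 1 of the 4 libraries (0.0508 to 0.311). SEC24D passed with sh 64 alone (0.46, adjusted p = 0.0306), and its difference between the knockdowns was not past the threshold. Its sh 64 call was lost in DESeq2 and without sh 64 replicate 2 or either control replicate. The log2 change of SEC24D with sh 64 ran from 0.27 to 0.67 over the alternatives. Single libraries moved these counts, over all genes as well as members: without control replicate 1 or 2, 0 members were higher with sh 64 and 0 or 1 lower, and 2 were lower with sh 65 in either case. Over all genes the sh 64 calls went from 1194 higher and 939 lower to 556 and 310 without control replicate 1 and 561 and 379 without control replicate 2. Leaving out sh 64 replicate 1 left 2 higher and 0 lower with sh 64, and leaving out sh 65 replicate 1 left 1 higher and 4 lower with sh 65.

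Other genes of the same pathways were counted in the same fits. Beside them, 12.2% of all genes tested rose and 11.6% fell in SCC25, and 5.03% and 2.94% in A253. On the mean of both CAL27 knockdowns, 9.88% of all genes rose and 8.91% fell. Of 14 genes of the PERK and ATF4 branch, 3 rose and 2 fell in SCC25, led by ATF3 (log2 change 1.16, adjusted p = 9.98e-08), a stress-induced transcription factor, and DDIT4 (-0.50, adjusted p = 5.56e-08), an inhibitor of mTOR signalling. In A253 none of 13 tested passed by edgeR, with 2 at an unadjusted p below 0.05. In CAL27, 7 of 14 rose and 1 fell with the mean of both knockdowns, and the median log2 change was 0.35. ASNS, asparagine synthetase, went from 37.1 to 44.6 CPM in controls to 67.5 to 79.8 with sh 64 and 92.6 to 98 with sh 65 (log2 change 1.01, adjusted p = 7.97e-07). PPP1R15A, the phosphatase subunit that reverses the PERK signal, fell by 0.40 (adjusted p = 0.00221).

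Other ER lists are given by their counts. The shares of all genes called higher and lower were 12.2% and 11.6% in SCC25 and 5.03% and 2.94% in A253. On the CAL27 mean these shares were 9.88% and 8.91%. In CAL27, of 23 other translocation and glycosylation genes, 6 fell and none rose on the mean of both knockdowns, led by SRPRB (-0.37, adjusted p = 0.00058), a subunit of the signal recognition particle receptor. Of 31 other folding enzymes, 1 rose and 6 fell, led by QSOX1 (-0.68, adjusted p = 9.51e-05), a secreted disulfide oxidase. Of 23 genes of ER to Golgi transport, 4 fell and none rose, and of 21 other degradation genes 1 rose and 1 fell. In SCC25 the counts of these lists were 3 up and 1 down of 24, 4 up and 3 down of 32, 2 up of 23, and 5 up and 3 down of 21. In A253 they were 1 up, 2 up, 1 up and 0. Of 14 other sensors and proteases, 1 fell in A253, 1 rose and 1 fell in SCC25, and none passed on the mean in CAL27 (3 at an unadjusted p below 0.05). Of 17 cytosolic and mitochondrial heat shock genes, a response outside the ER, 1 rose and 9 fell in SCC25, led by HSPE1 (-0.38, adjusted p = 2.96e-05), a mitochondrial co-chaperonin. In CAL27, 4 of 17 rose and none fell, led by HSPB1 (0.93, adjusted p = 2.96e-07), a small heat shock protein.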

How the data were processed

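RNA was measured in 16 libraries of A253, SCC25 and CAL27 cells; 2 libraries of a chromatin immunoprecipitation and its input were not analysed here. The deposited gene counts were made by the authors with TopHat2 2.1.1, Bowtie 1.1.1, featureCounts 1.5.3 and DESeq2 1.12.4 among the tools named, and build hg19, per the submitters' processing notes, which give no role or order; strand setting is not given in the sources used here. The deposited TPM tables hold the authors' length-scaled levels. That of A253 served to obtain gene lengths, and that of CAL27 gave them for genes with none from A253. From these lengths, levels per length were computed for all lines, and the TPM table of SCC25 was not used. In CAL27 counts, 696 row names differ from those of A253 at the same position (SSR1 among the members); names were restored by position, and the lengths implied in both lines differed by less than a log2 of 0.01 in 18450 of 18450 genes.

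Counts were tested in R 4.3.3 with edgeR 4.0.16 (filterByExpr, TMM, robust quasi-likelihood test, two-sided, Benjamini-Hochberg over all genes tested, threshold 0.05), within each line, with the 3 CAL27 groups in 1 fit and A253 with SCC25 in a joint fit for the interaction. CPM values are TMM-scaled. The summed counts of a library ran from 11090976 to 17823293 (A253), from 10728569 to 15965279 (SCC25) and from 7068155 to 19962159 (CAL27), and precision is lowest for genes of few counts. Alternatives were DESeq2 1.42.0, RLE size factors, no filter on low counts, the replicate number as a block, and leaving out each library. The scripts were tested on simulated data. Every member past the threshold was named, except in SCC25, where more than 12 passed: there the 6 largest changes in each direction were named as changes and the rest as values. Of the other lists, at most the 2 largest changes in each direction were named. Members and lists were chosen with earlier results of these data known. The labels tie neither hairpin name to knockdown 1 or 2, and the CAL27 TPM table exchanges both the hairpin names and, for the knockdowns, the replicate numbers (the count column sh 64 replicate 1 matches sh 65 replicate 2 there), so the CAL27 knockdown numbers are uncertain. Reads shared with near-identical copies may be split: PDIA3P took 0.895% to 3.51% of the counts of its pair with PDIA3, OSTCP1 0.443% to 3.68% with OSTC, and HSP90B2P at most 0.158% with HSP90B1.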

Additional observations from a re-analysis of the deposited data

Results flagged for a closer look

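Among the 4 CAL27 knockdown libraries, 2 of 33 members had a library far from the others by Dixon's ratio (at its 95% critical value for 4 samples), a rule that chance meets in about 1 of 20 groups. HSPA5 was highest in sh 64 replicate 1, at 581 CPM against 321, 332 and 353 CPM, a ratio of 0.877. ERO1LB was lowest in sh 65 replicate 1, at 5.03 CPM against 6.30, 6.33 and 6.37 CPM, a ratio of 0.945.

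The effect of EHF overexpression on SEL1L differed between the lines by 0.52 on the log2 scale, higher in SCC25 than in A253. Between the knockdowns, sh 65 was lower than sh 64 in HSP90B1 (-0.35), PDIA6 (-0.29), EDEM1 (-0.41) and XBP1 (-0.36) on the log2 scale.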

How the results depend on the processing

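Of 39 calls on members over the comparisons, 10 passed in every alternative and 29 were lost in at least 1, of which 14 were lost with all libraries kept; none changed direction. DESeq2 gave 7 members higher and 0 lower in SCC25, 0 higher on the mean of both CAL27 knockdowns, and 4 lower with sh 65. Its calls over all genes were also fewer, at 847 higher and 742 lower in SCC25 (edgeR 1728 and 1642) and 782 and 699 on the CAL27 mean (edgeR 1346 and 1214). Without the filter on low counts 1 member was higher with sh 65. Replicate numbers were not treated as pairs. The basis was that same-numbered libraries correlated at -0.192, 0.011 and 0.181 in A253, -0.031 in SCC25, and -0.011, 0.153 and 0.086 in CAL27. Differently numbered A253 libraries ran wider, from -0.354 (control replicate 2 with overexpression replicate 3) to 0.318 (control replicate 2 with overexpression replicate 1). The source of these correlations was not tested. With the replicate block, 4 members were higher and 7 lower on the CAL27 mean, 4 higher and 7 lower with sh 64, 1 higher and 9 lower with sh 65, 5 lower with sh 65 than with sh 64, 11 higher and 1 lower in SCC25, 1 higher and 1 lower in A253, and 1 higher in the interaction. Over all genes the block gave 1688 higher and 1629 lower on the CAL27 mean. The counts were 1567 and 1401 with sh 64, 1397 and 1318 with sh 65, and 558 and 702 between the knockdowns. They were 1789 and 1732 in SCC25, 678 and 395 in A253, and 385 and 590 in the interaction. The CAL27 numbers are those of the count table. Leaving out 1 library at a time gave 0 to 1 lower in A253, 6 to 10 higher and 0 to 1 lower in SCC25, 0 to 2 higher and 2 to 5 lower on the CAL27 mean, 0 to 4 higher and 0 to 4 lower with sh 64, 0 to 1 higher and 2 to 6 lower with sh 65, 0 to 4 lower with sh 65 than with sh 64, and 1 to 2 higher in the interaction. Counts over all genes moved too as libraries were left out, so these ranges are not particular to the members. In A253, where every group kept at least 2 libraries, all genes ran from 443 to 672 higher and from 215 to 370 lower. With all libraries these were 730 and 426. Where a group was left with 1 library, it was assumed to vary like the other groups. The cause of these shifts was not tested. SCC25 and CAL27 have 2 libraries a group, which limits precision there.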

Other observations

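Levels per length around SEL1L in control cells were compared over all its measured neighbours on the chromosome, 12 on one side and 10 on the other, chosen after the SEL1L values were seen. On the side of STON2, 8 of 12 genes had every A253 control above every control of both other lines, and on the side of FLRT2, 0 of 10 did, beside 25.2% of the 19960 genes with a count in any control. STON2, next to SEL1L, stood at 168 to 213 TPM (A253), 21.9 to 24.3 TPM (SCC25) and 19.4 to 21.2 TPM (CAL27). ADCK1, NRXN3, DIO2 and TSHR on the same side did not follow this order. FLRT2 stood at 0.0328 to 0.0643 TPM (A253), 13 to 14.6 TPM (SCC25) and 3.18 to 3.26 TPM (CAL27).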
